A study of Rattus norvegicus with 16 samples.

Results

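The carriers that move amino acids and monocarboxylates across cell membranes were examined in rat hepatoma H35 cells, a liver tumour line, after silencing of *Pdrg1*. The set was defined by name alone, as every array gene of the Slc1, Slc3, Slc6, Slc7, Slc16, Slc36, Slc38 and Slc43 families, with no use of its values. It held 74 of the 26269 gene names on the array, read by 91 of 30367 probes. One of the 74, *Slc7a6os*, carries the name of a gene on the opposite strand of *Slc7a6* and is not a carrier. Each array measured the RNA of 1 sample with a single dye (Cy3).

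There were 16 arrays in 4 groups, with 4 biological replicates per group according to the labels. All cells had been transfected with an shRNA plasmid and selected with the antibiotic G418 at 1.8 mg/ml. CN-10 was a stable clone that carried a negative control sequence, 4–18 was a stable clone with shRNA4, and 3–44 was a stable clone with shRNA3. These 3 clones had a further selection at 4 mg/ml and each stands for 1 clone picked from many, so a difference between clones and a difference between hairpins cannot be told apart. The last group, shRNA3T or the pool, was a transiently transfected pool of cells that received shRNA3 and was enriched by the first selection only, so it differs from CN-10 in that respect too. Replicates of a clone are cultures of 1 line, and their spread does not include the spread between clones.

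Each group lay on a slide of its own, so that slide and group cannot be told apart, and the slide of 4–18 was the dimmest and was scanned on another day than the other slides. Between 53.1% and 64.1% of its spots were well above background, against 64.7% to 74.3% on the other slides. Of the 74 carriers, each read by 1 probe here, 28 to 42 passed on its arrays against 40 to 52 elsewhere. *Pdrg1* itself was lower on every silenced array (11.57 to 13.34) than on every CN-10 array (13.41 to 13.88), but limma log2 fold changes of -0.77, -0.99 and -0.85 in these groups (4–18, 3–44 and the pool) had adjusted p-values of 0.129, 0.105 and 0.143. The cells kept hepatocyte markers, 12 of 12 being above background. Among the listed markers of other cells, some were above background on no array. These were *Ptprc* and *Cd163* of macrophages, *Pecam1* of endothelium, *Lrat* of stellate cells and *Epcam* of bile duct cells. Other markers of these cells were above background in at least 1 group, namely 3 of 5 for macrophages, 1 of 3 for endothelium, 3 of 5 for stellate cells and fibroblasts and 2 of 4 for bile duct cells, and *Vwf* and *Col1a1* were so on all arrays. The mean log2 intensity of these lists lay at 6.48 to 6.93, 6.98 to 7.56, 7.01 to 7.40 and 6.57 to 6.88 over the arrays. The markers of hepatocytes moved with the groups, with a mean log2 intensity of 12.22 to 12.60 over the list in CN-10, 12.04 to 12.44 in 4–18, 12.75 to 13.54 in 3–44 and 13.02 to 13.47 in the pool, and 2 of the 12 rose and 7 fell in 4–18 (all names 11.6% and 12.4%), 4 rose and 0 fell in 3–44 (3.45% and 4.69%), and 5 rose and 0 fell in the pool (5.13% and 7.04%). *Ttr* stood at 2.93, 2.84 and 2.38 in these groups and *Apoa1* at -2.12, 2.18 and 0.04. Of the 17 markers of other cells, 4 passed in at least 1 silenced group. *Des* (-1.17, -0.81 and -0.98 in 4–18, 3–44 and the pool) and *Krt19* (-0.33, -0.54 and -0.52) fell in each of them, *Cd68* fell in 4–18 (-0.43) and *Col1a1* rose in the pool (0.52). The part of these markers in the carrier results was not tested.

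Amino acids enter cells through carriers that differ in what they take and in what drives them. Sodium-coupled carriers of the Slc1 and Slc38 families concentrate small neutral amino acids such as glutamine and alanine. Exchangers made of an Slc7 light chain and the heavy chain *Slc3a2* (CD98) swap amino acids across the membrane, among them leucine, cationic amino acids and cystine. The Slc16 family holds the monocarboxylate carriers of lactate, pyruvate and ketone bodies together with carriers of aromatic amino acids and creatine. In liver these carriers feed the urea cycle, glutathione synthesis and glutamine exchange, and several belong to the response to amino acid shortage that the factor ATF4 drives.

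Short stretches of the carriers' promoters are shown because they hold the letters that the ATF4, NRF2 and Myc families of factors are known to bind. The promoter table from RefSeq (build GRCr8) held 57 promoters for 53 of the 74 names. The 250 bases before each start were searched on both strands for the CARE letters TGATGNAA, the ARE letters TGACNNNGC and the E-box CACGTG. These were found in 3.4%, 10.1% and 5.59% of all 33469 promoters in the table, and in 3, 10 and 8 of the 57 carrier promoters. A match says only that the letters are there. In the 24-base windows below, written 5′ to 3′ on the strand of the gene, capitals mark the match.
*Slc7a1*, CARE, chr12:11664450-11664473 (+): cgcgcggcTGATGAAAccggctcg
*Slc1a4*, CARE, chr14:98761782-98761805 (-): ctccagcgTTGCATCAtccagcca
*Slc3a2*, ARE, chr1:215039699-215039722 (-): gatcgggGCGGAGTCAtgggtcac
*Slc38a2*, ARE, chr7:129742653-129742676 (-): cgcccacTGACGCGGCtccaggcc
*Slc16a1*, E-box, chr2:194812435-194812458 (+): gcgcctagtCACGTGgcgggaagg
*Slc43a1*, E-box, chr3:90327222-90327245 (+): caggcgagtCACGTGtgcatgaaa
*Slc7a5*, E-box, chr19:66872577-66872600 (-): catacgctcCACGTGcttcaacag
In *Slc16a1* the ARE letters overlap this E-box. *Slc7a11* and *Slc16a4* had none of the 3 motifs in their window.

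A carrier was counted as above background where the signal of its probe passed the scanner software's flag for being well above background throughout 1 group or more. This held for 44 of the 74 names, and for 26 of them in all 4 groups. All 13 Slc16 names passed, with 8 of 16 Slc7, 7 of 18 Slc6, 7 of 11 Slc38, 4 of 7 Slc1, 2 of 2 Slc3, 2 of 3 Slc43 and 1 of 4 Slc36 names. Of the 30 others, 12 were above background on no array. Some carriers named for their role were among the undetected. *Slc38a4*, a system A carrier of hepatocytes, read 6.07 to 6.45 over the 16 arrays, *Slc38a1* read 6.01 to 6.38, and *Slc7a8*, the LAT2 light chain, read 6.06 to 6.51, all on the log2 intensity scale and none of them well above background. A carrier that passed through 1 bright group only had to differ between groups, so shares of the 44 are descriptions.

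The first question was which carriers differed between each silenced group and CN-10. A gene counted as called when it moved 2-fold or more and its limma p-value, adjusted over all probes, was under 0.05. In 4–18, 1 carrier was called higher (*Slc16a4*) and 3 lower (*Slc7a2*, *Slc7a11* and *Slc16a13*), against 2.62% of all names higher and 3.54% lower. In 3–44, 0 were called in either direction by limma, against 0.685% and 0.788% of all names. At an unadjusted p under 0.05, 14 of the 74 carriers differed there, against 19.6% of all names, and 1 of them (*Slc16a1*) moved 2-fold or more, against 1.69%. At an adjusted p under 0.05 whatever the size, 1 carrier rose and 6 fell in 3–44, against 3.45% and 4.69% of all names. In shRNA3T, *Slc16a1* was called higher and *Slc16a13*, *Slc16a6* and *Slc1a5* lower, against 1.2% and 1.19% of all names. These counts depended on the signal and scaling. In 4–18, 15 carriers were called with the scanner software's own processed signal and quantile normalization (14.6% of all names), 9 or 11 with its 75th percentile scaling relative to all probes or as it stands (14.7% and 13.8%), 7 with the deposited values (15%) and 6 with median scaling (12%), where the 4 above compare with 6.15% in both directions.

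Whatever the size of the change, 9 carriers rose and 9 fell in 4–18, against 11.6% and 12.4% of all names, a share of 12.2% of the carriers each way. In shRNA3T 5 rose and 9 fell, against 5.13% and 7.04%. These shares lie near those of the whole array for 4–18. The 44 carriers above background had median log2 fold changes of -0.02 (4–18), -0.16 (3–44) and -0.16 (pool), where all names above background had medians of -0.03, -0.03 and -0.02. The 3 comparisons used the same CN-10 arrays. Of the carriers that passed, 17 of 18 in 4–18, 4 of 7 in 3–44 and 7 of 14 in shRNA3T had a log2 fold change whose size grew or shrank by over 1.5 times, on the log2 scale, under at least 1 of 4 other choices of signal and scaling. These were the scanner software's processed signal with quantile or 75th percentile scaling, median scaling, and the deposited log2 values, each read relative to all probes, and their range is given below as the range over the other choices. Genes outside the carrier set, namely the markers above and the lists below, were read with the main signal and scaling only. The single members are described by their role.

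**Figure D1:**
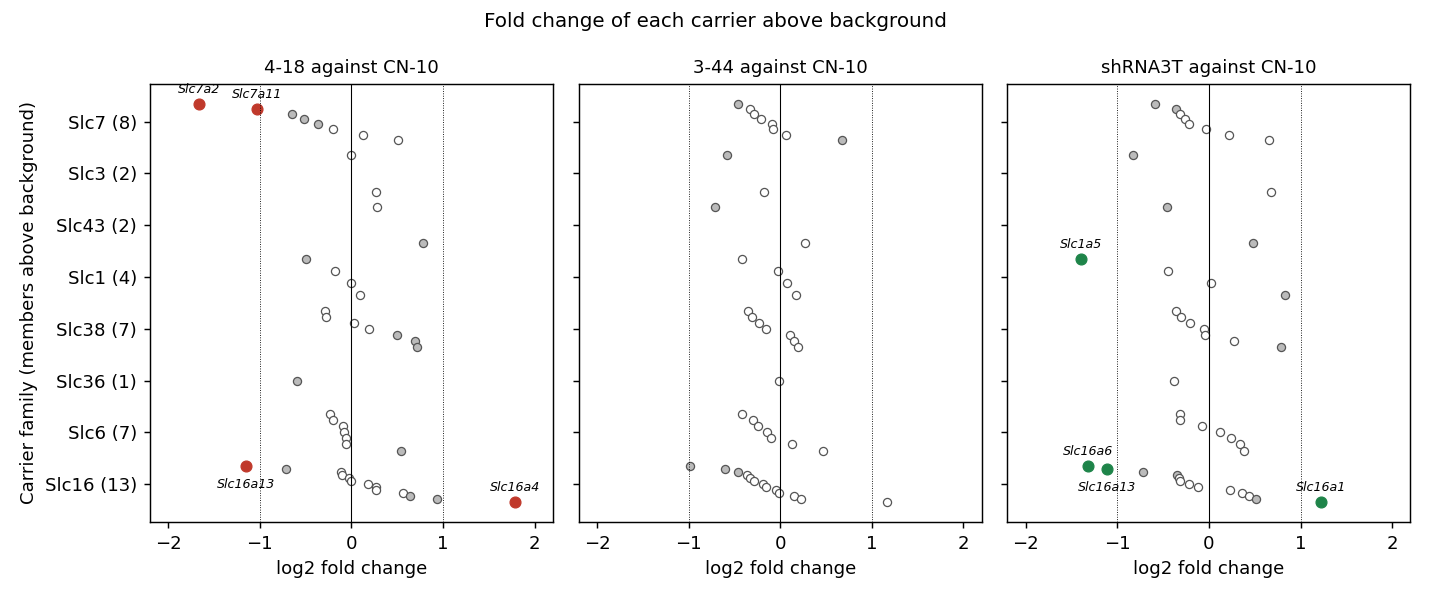
Log2 fold change against CN-10 (x axis) of each of the 44 carriers above background, by family (y axis, number of members in brackets), in 4–18, 3–44 and the pool; dotted lines mark 2-fold, coloured points with names are the called carriers, grey points passed the adjusted p only, white points neither. Coloured points number 4 in 4–18, 0 in 3–44 and 4 in the pool.

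Carriers of cationic amino acids are described first. *Slc7a2* (CAT-2) takes up arginine, lysine and ornithine and is the form typical of liver. Its probe lies at chr16:54752462-54752521 on the rn4 build. The log2 intensities were 10.34, 10.66, 10.57 and 10.58 in CN-10, 8.97, 8.62, 9.09 and 8.82 in 4–18, 11.54, 11.15, 11.05 and 11.13 in 3–44, with 10.96, 10.79, 10.68 and 10.60 in the pool. The 4 arrays of 4–18 lay below all others, and the 4 arrays of 3–44 lay above all others. *Slc7a2* was 3.17-fold lower in 4–18 than in CN-10 (log2 fold change -1.66 ± 0.13 SE, adjusted p = 2.41e-07 in limma). In 3–44 it was 1.60-fold higher (0.68 ± 0.13, adjusted p = 0.00347). The pool differed from CN-10 by 0.22 (95% interval -0.05 to 0.49, adjusted p = 0.355).

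The 2 stable silenced clones thus lay on opposite sides of CN-10 for this gene. Set directly against 3–44, 4–18 was 5.07-fold lower (-2.34 ± 0.13, adjusted p = 6.74e-09), and against the pool it was 3.68-fold lower (-1.88 ± 0.13, adjusted p = 9.53e-08). The clone 3–44 was also above the pool with the same hairpin, by 0.46 (adjusted p = 0.029). An exact permutation test of 4 arrays against 4 gave 0.0286, the smallest p it allows, for each of these differences. *Slc7a1* (CAT-1), the widespread carrier of the same amino acids, read 12.55 to 13.26 on the 15 arrays with a value. Its log2 fold changes were -0.20 in 4–18, where 1 spot had been set aside (n = 3), -0.28 in 3–44 and -0.21 in shRNA3T, with adjusted p-values of 0.453, 0.349 and 0.485.

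The cystine carrier *Slc7a11* (xCT) brings in cystine in exchange for glutamate and so supplies cysteine for glutathione. It read 7.95, 8.02, 8.01 and 8.08 in CN-10 and 7.08, 6.76, 7.08 and 7.01 in 4–18, where 3 of 4 arrays were above background. The values were 8.21, 7.97, 7.87 and 8.25 in 3–44 and 7.45, 7.61, 7.42 and 7.24 in the pool. No array of 4–18 or of the pool reached the lowest array of CN-10 or of 3–44. *Slc7a11* was 2.04-fold lower in 4–18 (-1.03 ± 0.10, adjusted p = 4.01e-06) and 1.5-fold lower in shRNA3T (-0.58 ± 0.10, adjusted p = 0.00154). In 3–44 the difference from CN-10 was 0.06 (95% interval -0.16 to 0.28). Between the silenced groups, 4–18 was below 3–44 by 1.09 on the log2 scale, a log2 fold change of -1.09 (adjusted p = 2.66e-06), which was -0.76 with median scaling, -0.95 with array weights and as far as -2.50 with the processed signal. The change in 4–18 stands just past the 2-fold limit. It was -0.95 without replicate 2 of that clone and -0.72 with median scaling as it stands, and it ranged from -2.44 to -1.08 over the other choices, the processed signal giving the larger falls. In shRNA3T that range was -0.96 to -0.66. A second probe of *Slc7a11* was not well above background in any group and gave -0.18 in 4–18.

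Enzymes that use what *Slc7a11* delivers were read from a list of 11 genes of glutamate and glutathione metabolism. In 4–18, 4 of the 11 rose and 2 fell at an adjusted p under 0.05, where 11.6% of all names rose and 12.4% fell. *Gclc*, the catalytic subunit of glutamate-cysteine ligase, rose by 0.36 (adjusted p = 0.00792), and *Gsr*, glutathione reductase, had a log2 fold change of -0.69 (adjusted p = 7.24e-06). *Gls2*, the liver glutaminase, had log2 fold changes of 1.02, 0.99 and 1.17 in 4–18, 3–44 and the pool, with adjusted p-values of 0.00196, 0.00716 and 0.00148. Glutamine synthetase, *Glul*, stood at 0.96 in 4–18 and -0.92 in 3–44 (adjusted p = 2.69e-06 and 2.1e-05).

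**Figure D2:**
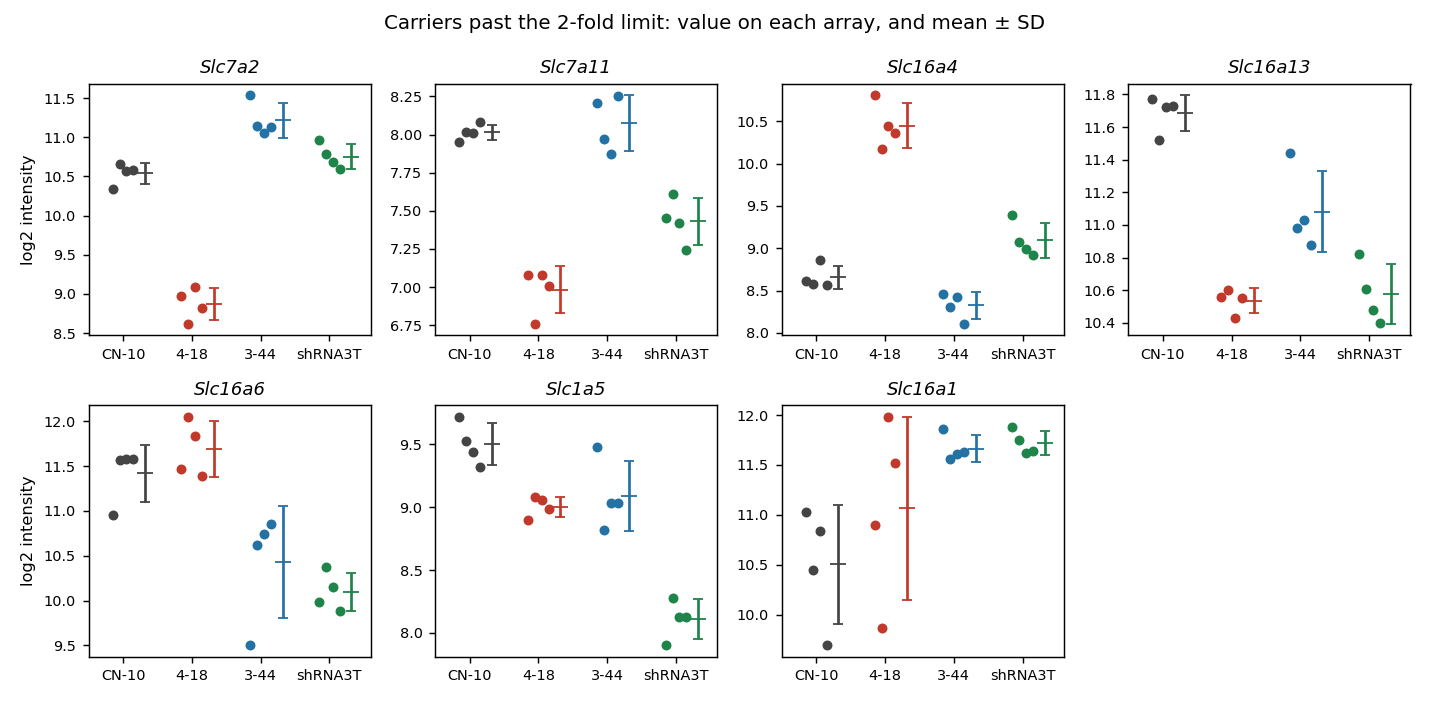
Log2 intensity (y axis) of the 7 carriers past the 2-fold limit in at least 1 comparison with CN-10, on each of the 4 arrays (points, in replicate order) of CN-10, 4–18, 3–44 and shRNA3T, with mean ± SD (n = 4) to the right; the y axes differ and do not start at 0. Slc7a2 is lowest in 4–18 and highest in 3–44, Slc16a4 is highest in 4–18, Slc16a13 is highest in CN-10, and Slc16a1 varies widely in CN-10 and 4–18.

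The heavy chain *Slc3a2*, which brings the Slc7 light chains to the cell surface, fell in the groups that carried shRNA3. It read 13.83, 13.74, 13.59 and 13.37 in CN-10 and 13.88, 13.55, 13.62 and 13.49 in 4–18. The values were 13.21, 12.91, 13.02 and 13.08 in 3–44 and 12.84, 12.96, 12.88 and 12.52 in the pool. Every array of the groups with shRNA3 lay below every array of the other groups. *Slc3a2* was 1.49-fold lower in 3–44 (-0.58 ± 0.12, adjusted p = 0.00741) and 1.78-fold lower in shRNA3T (-0.83 ± 0.12, adjusted p = 0.00029). The range over the other choices was -0.67 to -0.34 in 3–44 and -0.80 to -0.40 in shRNA3T. In 4–18 the difference was -0.001 (95% interval -0.26 to 0.26). Direct comparison put 4–18 above 3–44 by 0.58 (adjusted p = 0.00273) and above shRNA3T by 0.83 (adjusted p = 0.000161).

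The light chains did not follow a single pattern. *Slc7a5* (LAT1), which imports leucine and other large neutral amino acids, read 10.11 to 10.60 in CN-10, 9.68 to 10.37 in 4–18, 9.92 to 10.50 in 3–44 and 9.92 to 10.43 in the pool, and these ranges overlap. It was 1.43-fold lower in 4–18 (-0.52 ± 0.18, adjusted p = 0.0463), and ranged from -1.27 to -0.15 over the other choices. *Slc7a6* (y+LAT2), which exports cationic amino acids in exchange for glutamine and sodium, fell in 3–44 by 0.46 (adjusted p = 0.0251), with 1 array of 3–44 inside the range of CN-10 and a range of -0.54 to -0.27 over the other choices. Its relative *Slc7a7* (y+LAT1) fell in 4–18, from 7.60 to 8.14 in CN-10 to 6.96 to 7.46, by 0.65 (adjusted p = 0.0196), with a range of -1.53 to -0.82 over the other choices. *Slc7a15* was lower by 0.36 in 4–18 and in the pool (log2 fold change -0.36 in each, adjusted p = 0.0281 and 0.0485), close to background. In 4–18 it ranged from -2.02 to -0.31 over the other choices, and median scaling as it stands gave 0.07. In shRNA3T the range was -0.88 to -0.47. Of the 16 Slc7 names, 5 fell in 4–18 and 0 rose, where 12.4% of all names fell and 11.6% rose.

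The Slc43 family holds facilitative carriers of branched-chain and other neutral amino acids. *Slc43a1* (LAT3) read 7.36 to 7.59 in CN-10, 7.88 to 8.77 in 4–18, 7.73 to 7.92 in 3–44 and 7.87 to 8.08 in the pool, and no silenced array came down to the range of CN-10. It rose by 0.78 in 4–18 (adjusted p = 0.000677) and by 0.48 in shRNA3T (adjusted p = 0.0342), while 0.27 in 3–44 had an adjusted p of 0.308. Over the other choices it ranged from 0.27 to 1.23 in 4–18 and from 0.51 to 0.92 in shRNA3T. *Slc43a2* (LAT4) fell by 0.71 in 3–44 (adjusted p = 0.00124; -1.11 to -0.82 over the other choices) and by 0.46 in shRNA3T (adjusted p = 0.0166). Its value in 4–18 was 0.28 (adjusted p = 0.0975). A second, dimmer probe of *Slc43a2* gave -0.17 and -0.09 in 3–44 and the pool and did not pass, so the probes of this gene disagree.

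Sodium-coupled exchangers of small neutral amino acids were led by *Slc1a5* (ASCT2), the carrier known for glutamine uptake in tumour cells. It read 9.72, 9.53, 9.44 and 9.32 in CN-10, 8.90, 9.08, 9.06 and 8.99 in 4–18, 9.48, 8.82, 9.03 and 9.03 in 3–44, with 7.90, 8.28, 8.13 and 8.13 in the pool. The pool stood apart below all other arrays, 4–18 lay below CN-10, and 1 array of 3–44 reached into the range of CN-10. *Slc1a5* was 2.63-fold lower in shRNA3T (-1.39 ± 0.13, adjusted p = 4.66e-06) and 1.41-fold lower in 4–18 (-0.50 ± 0.13, adjusted p = 0.00956; -1.15 to -0.52 over the other choices). In 3–44 the value was -0.41 (95% interval -0.69 to -0.14, adjusted p = 0.0614). The pool was 1.97-fold below 3–44, which carries the same hairpin (adjusted p = 0.000143). *Slc1a4* (ASCT1), which carries alanine, serine and cysteine, had log2 fold changes of -0.18, 0.17 and -0.45 in 4–18, 3–44 and the pool and did not pass in any of them (adjusted p = 0.522, 0.664 and 0.117).

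The glutamate carrier *Slc1a2* (GLT-1) was bright on every array. Its representative probe read 12.70 to 13.05 in CN-10, 12.53 to 13.29 in 4–18, 12.64 to 13.21 in 3–44 and 13.62 to 13.75 in the pool. It rose by 0.83 in shRNA3T (adjusted p = 0.00159), and the second probe rose there by 0.91 (adjusted p = 0.00484). In 4–18 the probes disagreed, with log2 fold changes of -0.001 and 1.02 (adjusted p = 0.998 and 0.001), so no direction is given for that clone.

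In the Slc38 family, *Slc38a2* (SNAT2), the system A carrier induced by amino acid shortage, rose in the pool. It read 11.83, 12.14, 12.16 and 12.11 in CN-10 and 13.06, 12.91, 12.70 and 12.71 in the pool, with no overlap and a log2 fold change of 0.78 (SE 0.15, adjusted p = 0.00241). In 4–18 it read 12.86, 12.54, 12.07 and 12.77, overlapping CN-10, and rose by 0.50 (adjusted p = 0.0231), a direction that turned to -0.38 and -0.37 relative to all probes when the arrays were scaled by their median or read from the unscaled deposited values. *Slc38a3* (SNAT3), the system N carrier of glutamine in hepatocytes, read 10.56 to 11.01 over the 16 arrays and did not pass against CN-10 in any silenced group. Its log2 fold changes were 0.03, -0.15 and -0.20.

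Several carriers of the lysosome are known to report amino acids to mTORC1. *Slc38a9*, an arginine sensor of the lysosome, read 7.63 to 8.39 in CN-10, 8.61 to 8.89 in 4–18, 7.81 to 8.39 in 3–44 and 8.20 to 8.54 in the pool. It rose in 4–18 by 0.70 (adjusted p = 0.00322), and 4–18 was above 3–44 by 0.60 (adjusted p = 0.00987). The rise against CN-10 ranged from 0.14 to 0.95 over the other choices, and the lower values came from median scaling and the deposited values. *Slc38a7* (SNAT7), which exports glutamine from the lysosome, rose in 4–18 by 0.72 (adjusted p = 0.01) with no overlap, a direction that was -0.07 and -0.03 relative to all probes with median scaling and with the unscaled deposited values. The proton-coupled *Slc36a1* (PAT1) fell in 4–18 from 6.96 to 7.62 in CN-10 to 6.55 to 6.95, by 0.59 (adjusted p = 0.0102), with 2 of 4 arrays of 4–18 above background and a range of -1.90 to -0.59 over the other choices. *Slc36a4* was above background on no array.

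**Figure D3:**
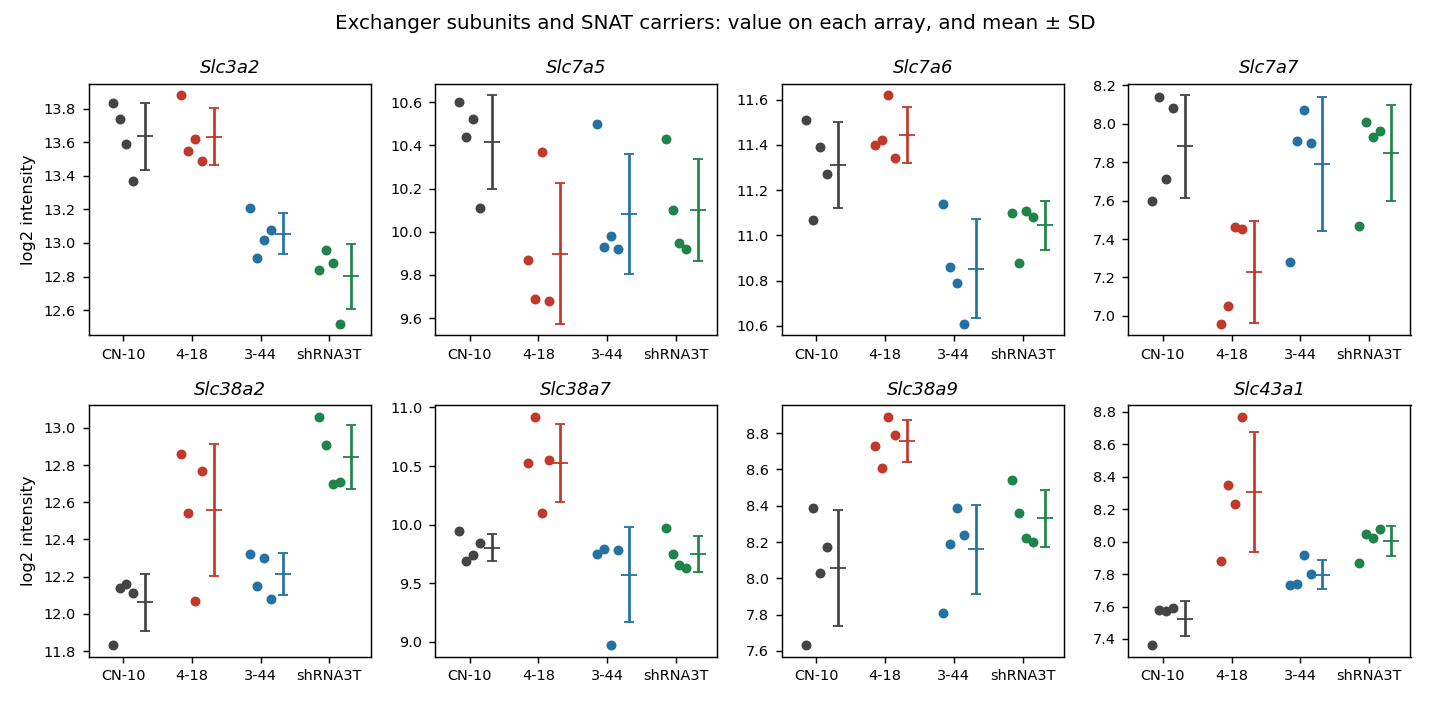
Log2 intensity (y axis) of the heavy chain Slc3a2, 3 light chains and 4 carriers of the Slc38 and Slc43 families on each of the 4 arrays (points, in replicate order) of CN-10, 4–18, 3–44 and shRNA3T, with mean ± SD (n = 4) to the right; the y axes differ and do not start at 0. Slc3a2 is low in 3–44 and shRNA3T, Slc38a2 is highest in shRNA3T, and Slc38a7, Slc38a9 and Slc43a1 are highest in 4–18.

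Of 25 genes listed for amino acid sensing by mTORC1, 16 were on the array under the names used. In 4–18, 9 of these rose and 1 fell whatever the size, where 11.6% and 12.4% of all names did, with a list median of 0.43. How far these values depend on the signal and scaling was not tested, here or for the other lists. *Depdc5*, a subunit of the GATOR1 complex that restrains mTORC1, had a log2 fold change of 2.03 (adjusted p = 4.26e-06), and *Mios*, a subunit of the opposing GATOR2 complex, one of -1.25 (adjusted p = 7.51e-05). *Wdr24*, also of GATOR2, stood at 1.38, 1.16 and 1.11 in 4–18, 3–44 and the pool (adjusted p = 0.00123, 0.0122 and 0.0112). No other gene of this list passed in 3–44 or in shRNA3T.

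The Slc6 family holds carriers of taurine, glycine and creatine. The taurine carrier *Slc6a6* read 9.77 to 9.91 in CN-10, 10.05 to 10.73 in 4–18, 9.22 to 9.77 in 3–44 and 9.79 to 10.35 in the pool. It was 0.54 higher in 4–18 than in CN-10 (adjusted p = 0.019), a direction that was -0.24 and -0.26 relative to all probes with median scaling and with the unscaled deposited values. The direct difference between 4–18 and 3–44 was 0.96 (adjusted p = 0.000343). *Slc6a9* (GlyT1), the glycine carrier, had log2 fold changes of -0.09, 0.47 and 0.34 and did not pass (adjusted p = 0.755, 0.1 and 0.225). The creatine carrier *Slc6a8* read 6.89 to 7.05 in 4–18, where 3 of 4 arrays were above background, and 6.27 to 6.32 in CN-10, where none was. That puts 4–18 at least 1.60-fold higher than CN-10 (adjusted p = 2.64e-06). Its fitted log2 fold change of 0.69 is no bound, and it ranged from 0.83 to 2.77 over the other choices, highest with the processed signal.

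The Slc16 family, with the carriers of lactate, pyruvate and ketone bodies, held 4 of the 7 carriers called against CN-10. *Slc16a4* (MCT5), whose substrate is not settled, read 8.61, 8.58, 8.86 and 8.57 in CN-10, 10.81, 10.17, 10.44 and 10.36 in 4–18, 8.46, 8.31, 8.42 and 8.11 in 3–44, with 9.39, 9.07, 8.99 and 8.92 in the pool. The groups did not overlap, with 4–18 highest and 3–44 lowest. *Slc16a4* was 3.46-fold higher in 4–18 than in CN-10 (1.79 ± 0.14, adjusted p = 2.46e-07; 1.01 to 1.88 over the other choices), and its values of -0.33 in 3–44 and 0.44 in the pool did not pass (adjusted p = 0.189 and 0.0507). Set against the other silenced groups, 4–18 was 4.34-fold above 3–44 (adjusted p = 4.68e-08) and 2.55-fold above shRNA3T (adjusted p = 5.63e-06). The last, 1.35 on the log2 scale, fell short of 2-fold with the deposited values (0.45, adjusted p = 0.205), with 75th percentile scaling relative to all probes (0.87) and with median scaling (0.93). The groups with shRNA3 also differed, 3–44 being 1.70-fold below the pool (adjusted p = 0.00192).

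*Slc16a13* (MCT13) was lower in each silenced group. It read 11.77, 11.52, 11.72 and 11.73 in CN-10, 10.56, 10.60, 10.43 and 10.55 in 4–18, 11.44, 10.98, 11.03 and 10.88 in 3–44, with 10.82, 10.61, 10.48 and 10.40 in the pool. All 12 silenced arrays lay below all CN-10 arrays. Its log2 fold change was -1.15 in 4–18 (SE 0.12, adjusted p = 4.45e-06). It ranged there from -1.99 to -0.76 over the other choices, and with the processed signal it was short of 2-fold. It was -0.60 in 3–44 (adjusted p = 0.00467) and reached -1.11 in the pool (adjusted p = 1.78e-05), with -0.91 under 75th percentile scaling of the processed signal relative to all probes. The clone 3–44 was less reduced than 4–18 (difference of 4–18 from 3–44 -0.55, adjusted p = 0.00334) and than the pool (0.50, adjusted p = 0.0115). *Slc16a14*, an orphan of the same family, read 7.15 to 7.51 in CN-10 and 6.36 to 7.13 in the silenced groups. It was 1.64-fold lower in 4–18 (limma adjusted p = 0.000832), where no array was above background, and this fitted value is no bound. Its log2 fold changes were -0.46 in 3–44 and -0.72 in shRNA3T (adjusted p = 0.0419 and 0.00159). Over the other choices it ranged from -2.81 to -0.55 in 4–18, -1.15 to -0.60 in 3–44 and -1.96 to -0.89 in shRNA3T.

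*Slc16a6* (MCT7), known for the export of ketone bodies from hepatocytes, fell in the groups that carried shRNA3. It read 10.95, 11.57, 11.58 and 11.58 in CN-10, 11.47, 12.05, 11.84 and 11.39 in 4–18, 9.50, 10.62, 10.74 and 10.86 in 3–44, with 9.99, 10.37, 10.15 and 9.88 in the pool. Every array of 3–44 and the pool lay below every array of CN-10 and 4–18. The log2 fold change was -1.32 in shRNA3T (SE 0.26, adjusted p = 0.00312) and -0.99 in 3–44 (adjusted p = 0.0292), against 0.27 in 4–18 (adjusted p = 0.524). Clone 4–18 was 2.39-fold above 3–44 (adjusted p = 0.00246) and 3.01-fold above the pool (adjusted p = 0.000416). With the deposited values these log2 differences were 0.45 and 0.63 and did not pass (adjusted p = 0.586 and 0.291), and the value in shRNA3T against CN-10 was -1.24 (adjusted p = 0.122).

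*Slc16a1* (MCT1), the main carrier of lactate in most cells, was the least certain of the called carriers. It read 11.03, 10.45, 10.84 and 9.69 in CN-10, 10.90, 9.86, 11.98 and 11.52 in 4–18, 11.86, 11.56, 11.61 and 11.63 in 3–44, with 11.88, 11.75, 11.62 and 11.64 in the pool. The arrays of 3–44 and the pool lay together above all CN-10 arrays, and the range of 4–18 overlapped that of each other group. *Slc16a1* was 2.33-fold higher in shRNA3T (1.22 ± 0.36, adjusted p = 0.0374) and stood at 1.16 in 3–44 (95% interval 0.40 to 1.92, adjusted p = 0.062). Without CN-10 replicate 4 the value in shRNA3T was 0.95 (adjusted p = 0.113). Its partner *Bsg*, the protein that brings it to the cell surface, was above background in all groups and did not pass (0.26, 0.39 and 0.21, adjusted p = 0.423, 0.334 and 0.658). *Slc16a3* (MCT4), the lactate exporter of glycolytic cells, lay close to background at 6.42 to 7.12 and did not pass.

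Beside these carriers, enzymes of lactate and pyruvate were read for 7 of 9 listed genes. In 4–18, 4 of the 7 rose and 0 fell, where 11.6% of all names rose and 12.4% fell. *Ldhb*, the lactate dehydrogenase subunit of oxidative tissues, had a log2 fold change of 2.75 in 4–18 (adjusted p = 1.25e-08) against -0.25 and 0.11 in 3–44 and the pool (adjusted p = 0.448 and 0.794). *Ldha* did not pass, at 0.19, -0.10 and 0.39. *Pdk1*, a kinase that restrains pyruvate dehydrogenase, passed in the 3 groups at 0.70, 0.64 and 0.85 (adjusted p = 0.00658, 0.0315 and 0.00337).

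*Slc16a10* (TAT1), a carrier of aromatic amino acids, read 7.20 to 7.42 in CN-10, 7.93 to 8.73 in 4–18, 7.22 to 7.73 in 3–44 and 7.73 to 7.87 in the pool. It rose by 0.94 in 4–18 (adjusted p = 0.000259) and by 0.51 in shRNA3T (adjusted p = 0.0355), with ranges of 0.56 to 1.59 and 0.53 to 1.14 over the other choices. *Slc16a12*, a creatine carrier, rose in 4–18 by 0.64 (adjusted p = 0.00473; 0.58 to 1.42 over the other choices).

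The silenced groups were also compared with each other. Between 4–18 and 3–44, 4 carriers were called (*Slc16a4* and *Slc16a6* higher in 4–18, *Slc7a2* and *Slc7a11* lower), against 4.98% of all names, and 19 of 74 passed whatever the size, against 22.5%. Between 4–18 and shRNA3T, 3 were called (*Slc16a4*, *Slc16a6* and *Slc7a2*), against 4.56%, and 15 passed whatever the size, against 20.5%. Between 3–44 and shRNA3T, which received the same hairpin, 0 were called by limma, against 2.12%, and 11 passed whatever the size, against 10.9%. Those 11 included *Slc1a5*, *Slc7a11*, *Slc7a2* and *Slc16a13*, higher in 3–44, and *Slc1a2*, *Slc38a2* and *Slc16a4*, higher in the pool.

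Genes of the amino acid response were read as the setting of the carriers, since *Slc7a11*, *Slc38a2*, *Slc3a2*, *Slc7a5* and *Slc1a5* are known members of it. Of 37 listed genes 35 were on the array and 33 above background. In 4–18, 1 was called higher and 6 lower, against 2.62% and 3.54% of all names. Whatever the size, 4 rose and 11 fell, against 11.6% and 12.4%, with a list median of -0.20 where all names had 0.003. *Trib3*, a pseudokinase induced by ATF4, had log2 fold changes of -1.71, -0.75 and -0.80 in 4–18, 3–44 and the pool (adjusted p = 1.97e-06, 0.00883 and 0.00377). The aminoacyl-tRNA synthetases *Tars*, *Eprs* and *Lars* stood at -1.61, -1.33 and -1.33 in 4–18 (adjusted p = 6.02e-05, 1.41e-05 and 0.000782). *Nars* stood at -0.72 (adjusted p = 0.0392), and the other 7 of the 11 listed synthetases lay at -0.23 (*Cars*) to 0.38 (*Iars*) and did not pass. The serine synthesis enzymes *Psat1* and *Psph* stood at -1.06 and -1.30 (adjusted p = 0.0201 and 0.0207).

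Not all of the list moved this way in 4–18. *Ddit3* (CHOP), a stress-induced transcription factor, rose by 1.5 (adjusted p = 0.00238). *Atf4* itself had -0.38 and *Asns*, asparagine synthetase, -0.22, and neither passed (adjusted p = 0.0837 and 0.323). In 3–44, 0 of the list were called by limma, with 3 rising and 1 falling whatever the size (all names 3.45% and 4.69%), and in shRNA3T 0 were called, with 2 rising and 4 falling (5.13% and 7.04%).

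**Figure D4:**
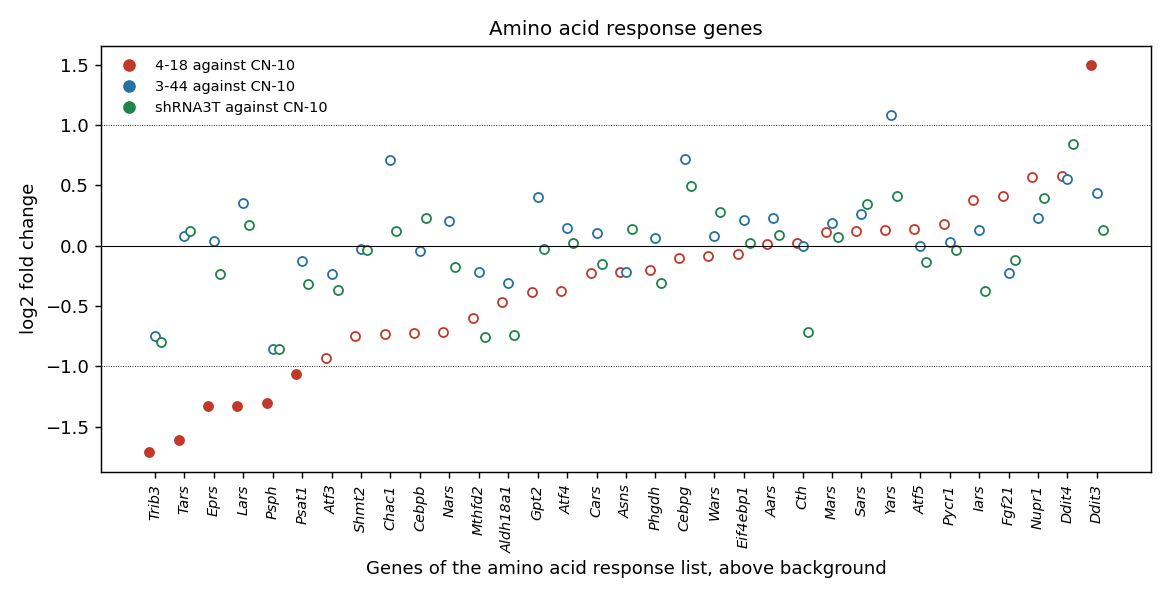
Log2 fold change against CN-10 (y axis) of the 33 genes of the amino acid response list that were above background (x axis, in order of the value in 4–18), in 4–18, 3–44 and the pool; dotted lines mark 2-fold and filled points mark called genes. All filled points belong to 4–18, with 6 below 0 and Ddit3 above.

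The carriers not described singly were few in change. The 15 others above background ranged from -0.28 to 0.51 in 4–18, from -0.36 to 0.19 in 3–44 and from -0.36 to 0.67 in shRNA3T, and 0 passed in limma at an adjusted p under 0.05 against CN-10. The 25 others, below the detection rule, lay between -0.20 and 0.46 in the 3 comparisons with CN-10, and 0 passed. Replicate spread was a median SD of 0.17 in CN-10, 0.26 in 4–18, 0.22 in 3–44 and 0.15 in the pool over the carriers above background. Since the background correction adds a constant to every spot, differences of dim probes are understated.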

How the data were processed

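Spots were quantified by the authors in Feature Extraction (version 10.7.3.1). In the deposited files the intensity columns hold each spot's mean signal and local background on a linear scale, not normalized, and a processed signal corrected by that software. The authors also deposited log2 values, which after restoring lost decimal points equalled log2 of the normexp-corrected median signal, not scaled between arrays.

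With limma 3.58.1 in R 4.3.3, background was corrected by normexp (offset 50), arrays were quantile normalized, spots flagged as outliers were set aside and spots of a probe averaged. One mean per group was fitted over 16 arrays with empirical Bayes moderation, and p-values were adjusted (Benjamini-Hochberg) over all 30367 probes. A gene was represented by its probe with the highest mean. A spot set counted as above background when more than 50% of a probe's spots were flagged so. Steps were tested on simulated data. Of the accessions of the 74 names, 69 were in the RefSeq gene table, 68 of them with the same symbol. Probe positions are those of the rn4 build, and no genome of that build was used, so exons are not stated.

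Named carriers were those called against CN-10, 23 chosen by role, and up to 10 others that passed at any size. That gave 34 names, of which 1 is not reported here. The members, lists and rules were chosen with earlier results of these data known. A two-sided exact permutation test of the arrays was added for single carriers. Alternatives were other signals, scalings, filters, weights, a replicate block and leaving out each array.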

Additional observations from a re-analysis of the deposited data

Results flagged for a closer look

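Among the 34 carriers named, 135 sets of 4 replicate values were examined against Dixon's critical value, and 14 had an array far from the other 3. Chance gives about 1 set in 20. Replicate 1 was the array apart in CN-10 for *Slc16a6* (10.95, others 11.57 to 11.58), *Slc36a1* (6.96, others 7.53 to 7.62), *Slc38a2* (11.83, others 12.11 to 12.16), *Slc43a1* (7.36, others 7.57 to 7.59) and *Slc38a4* (6.45, others 6.15 to 6.19). It was also apart in 3–44 for *Slc6a9* (10.99, others 10.38 to 10.44) and *Slc7a5* (10.50, others 9.92 to 9.98), and in shRNA3T for *Slc1a4* (8.23, others 8.79 to 8.87) and *Slc7a7* (7.47, others 7.93 to 8.01). Replicate 2 was apart in shRNA3T for *Slc7a15* (6.64, others 6.82 to 6.84) and *Slc7a6* (10.88, others 11.08 to 11.11) and in 4–18 for *Slc6a9* (10.48, others 9.78 to 9.88). Replicate 3 was apart in CN-10 for *Slc16a4* (8.86, others 8.57 to 8.61) and in 3–44 for *Slc38a7* (8.97, others 9.75 to 9.79).

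Some carriers answered differently in the silenced groups, by a direct limma comparison past the 2-fold limit. Against 3–44, clone 4–18 differed by 2.12 for *Slc16a4*, 1.26 for *Slc16a6*, -1.09 for *Slc7a11* and -2.34 for *Slc7a2*. Against shRNA3T it differed by 1.35 for *Slc16a4*, 1.59 for *Slc16a6* and -1.88 for *Slc7a2*. With the deposited values *Slc16a4* and *Slc16a6* differed by 0.45 and 0.63 from shRNA3T and *Slc16a6* by 0.45 from 3–44, none past an adjusted p of 0.05, and *Slc7a11* differed by -0.76 from 3–44 with median scaling. Each of these groups also had a slide of its own.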

How the results depend on the processing

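Counts of called carriers against CN-10 were 4 in 4–18, 0 in 3–44 and 4 in shRNA3T, and between silenced groups 4 (4–18 against 3–44), 3 (4–18 against shRNA3T) and 0 (3–44 against shRNA3T). In that order, the software's processed signal with quantile normalization gave 15, 3, 5, 14, 10 and 4. The processed signal scaled by the 75th percentile, relative to the median of all probes, gave 9, 2, 5, 8, 7 and 4, and as scaled 11, 3, 8, 9, 11 and 5. Median scaling gave 6, 0, 4, 6, 8 and 1. The deposited log2 values, relative to the median of all probes, gave 7, 0, 2, 6, 6 and 0. A fold limit of 1.5 gave 13, 4, 8, 12, 10 and 7. In 3–44, *Slc16a1* made a count of 1 with bright probes only, with array weights or with the 2 compared groups only. Array weights also gave 5 in 4–18 against 3–44. Leaving out 1 array gave 3 to 5 in 4–18, 0 to 1 in 3–44, 3 to 4 in shRNA3T, and 4 to 6, 3 and 0 to 1 between silenced groups. The count of 1 in 3–44 was *Slc16a6* without CN-10 replicate 1 or 3–44 replicate 2, 3 or 4, and *Slc16a1* without 4–18 replicate 2 or 3. In 3–44 against shRNA3T it was *Slc1a5* without replicate 2 of either group.

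For single called carriers, 349 comparisons with an alternative kept the call, 26 lost it and 0 reversed. *Slc7a2*, in its 3 calls, *Slc1a5* in shRNA3T, and *Slc16a4* in 4–18 against CN-10 and 3–44 kept it throughout. *Slc16a1* in shRNA3T ranged from 0.95 to 1.53 and lost its call without CN-10 replicate 2 or 4, without any 1 array of shRNA3T or with the deposited values (1.31, adjusted p = 0.12). *Slc16a6* between 4–18 and 3–44 lost it without 3–44 replicate 1 (0.95), with median scaling (0.79), with the processed signal scaled by the 75th percentile (0.84) and with the deposited values (0.45). *Slc16a13* in 4–18 lost it with the processed signal (-0.75 to -0.96). *Slc7a11* in 4–18 lost it with median scaling (-0.72) and without 4–18 replicate 2 (-0.95), and between 4–18 and 3–44 with median scaling (-0.76) and array weights (-0.95). With the 75th percentile relative to all probes, *Slc16a13* and *Slc16a6* in shRNA3T lost it (-0.91 and -0.95), as did *Slc16a6* and *Slc16a4* between 4–18 and shRNA3T (0.91 and 0.87). With the deposited values these last were at 0.63 and 0.45 and *Slc16a6* in shRNA3T at -1.24, and median scaling gave 0.93 for *Slc16a4*. The cause was not tested.

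Median scaling shifted all probes of 4–18 by 0.39 against CN-10, and relative to that shift *Slc38a2*, *Slc38a7* and *Slc6a6* changed sign in that clone (-0.38, -0.07 and -0.24). As scaled they did not (0.007, 0.32 and 0.15), while *Slc7a15* did (0.07). Signal near background on the slide of 4–18 limits its dim carriers. Same-numbered arrays correlated with a median of 0.14 over 24 pairs (-0.12 to 0.47, 14 above 0.1) and arrays of unlike number with one of -0.02 over 72. The 6 pairs of replicate 1 lay at 0.20 to 0.47, and not every pair was above 0.1, so the numbers were not taken as pairs. With the replicate block the counts were 4, 0, 4, 4, 3 and 0, and no call changed.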
